A study of Mus musculus with 6 samples.

Results

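Krüppel-like factors (Klf) form a family of zinc finger transcription factors, and 10 of them in the postnatal mouse cortex are described here: Klf2, Klf3, Klf4, Klf6, Klf7, Klf9, Klf10, Klf12, Klf13 and Klf16. They were found by gene symbol among 24972 genes of the deposited table. The 10 genes were chosen from the family with their values in these same 6 libraries known, so their levels and their differences between the groups are given as a description, with no test.

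Klf proteins bind GC-rich and CACCC-containing DNA through zinc fingers at the C-terminus, and the rest of each protein recruits either acetyltransferases or corepressors. In neurons the family is known for setting the capacity of axons to grow, with Klf6 and Klf7 promoting growth and Klf4 and Klf9 restraining it. Outside neurons, Klf2 and Klf4 are flow-responsive factors of the vascular endothelium, and several members respond within minutes to hours to growth factors or steroid and thyroid hormones.

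RNA was sequenced from cortices taken on postnatal day 7 (P7), as 3 wildtype libraries and 3 with the label Zmiz1-KO. The labels give Zmiz1f/f as the genotype of wildtype and Zmiz1f/f;Emx1Cre as that of Zmiz1-KO, so both groups carried the floxed Zmiz1 alleles and only the second carried Cre. Emx1Cre acts in dorsal forebrain progenitors, whose descendants are the excitatory neurons and astrocytes of the cortex, and vessels, microglia and most interneurons come from other progenitors. An effect of Cre itself and an effect of deletion cannot be told apart, as no library carried Cre without floxed alleles. The labels speak both of cortex and of isolated progenitor cells, whereas the study's methods describe dissected cortices, and they do not say whether each library was 1 animal, so the p-values measure the spread between these libraries. Sex is not in the labels. Xist, the RNA of the inactive X chromosome, was at 25307 normalized counts in wildtype replicate 3 and 24403 in Zmiz1-KO replicate 2, 1 library in each group, and between 12.9 and 57.3 in the other 4 libraries.

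Values are taken as normalized counts, that is, reads per gene scaled to a common depth by the authors. They summed to between 32661979 and 33239707 per library. The lowest values of a library lay near multiples of 1.83 to 2.11 normalized counts, which puts the depth at an estimated 15486928 to 17848076 reads assigned to genes.

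Zmiz1, the gene targeted for deletion, was measured at 8119, 7929 and 7461 normalized counts in wildtype and at 9944, 9779 and 9660.2 in the Zmiz1-KO-labelled libraries. All 3 Zmiz1-KO-labelled libraries thus lay above all 3 wildtype libraries, opposite to the direction of the label, by 0.32 on the log2 scale (log2 change, with a standard error, SE, of 0.040 and a limma adjusted p of 0.00125). The table gives 1 value for the whole gene and does not separate the deleted exons from the others, so every direction below is that of the Zmiz1-KO-labelled libraries against wildtype.

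Markers of cortical excitatory neurons were present in every library. Their summed level over 10 genes was 50739.7, 45855 and 47292 normalized counts in wildtype and 48334, 46365 and 47095 in the Zmiz1-KO-labelled libraries, and the most abundant of them was the vesicular glutamate transporter Slc17a7, at 19640 ± 1127 and 19623 ± 533 (SD, n = 3 per group). Their median log2 change was -0.11 (-0.04 without wildtype replicate 1 and -0.07 without Zmiz1-KO replicate 2), against 0.00 over all tested genes, with 8 of the 10 under 0, groups that did not overlap for 3 (16.3% of all tested genes) and 4 at an unadjusted p under 0.05 (11.0%). Of the 10 markers, 1 was called by limma at an adjusted p of 0.05, against 65 of all 15800 tested genes (0.411%): Emx1, a forebrain homeobox gene, was at 763 ± 67.6 normalized counts in wildtype and 529 ± 55.1 in the Zmiz1-KO-labelled libraries (log2 change -0.53, limma adjusted p = 0.0150). Without wildtype replicate 1, wildtype replicate 3 or Zmiz1-KO replicate 1, Emx1 no longer passed, with a limma adjusted p of at most 0.0882. Only the Zmiz1-KO-labelled libraries carried Emx1Cre, and an effect of that allele on the value of Emx1 was not tested.

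The levels of the 10 genes spanned a 16.9-fold range of length-scaled level in wildtype. To compare genes with each other, each normalized count was divided by the exonic length of the gene and expressed as a share of the sum over all genes, giving a length-scaled level in parts per 1000000 (ppm). On this scale Klf6, a growth-associated activator, was the highest at 88.4 ± 6.66 ppm (SD, n = 3). Klf16, a repressor also known as dopamine receptor regulating factor, followed at 72.9 ± 2.13, and the hormone-responsive paralogs Klf13 and Klf9 stood at 66.4 ± 2.51 and 57.7 ± 1.56. These 4 genes held 64.4% of the summed length-scaled level of all Klf genes in the table.

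Klf10, a TGF-beta-inducible repressor, formed a middle step at 26.7 ± 1.15 ppm. Klf2 (13.8 ± 1.23), Klf12 (12.1 ± 2.49) and Klf7 (11.8 ± 0.403) came next. Klf2 lay above Klf7 in all 3 wildtype libraries, whereas those of Klf12 overlapped with both, so its place among them is not resolved. Klf4 at 6.86 ± 0.839 and Klf3 at 5.24 ± 0.472 ppm closed the order. Every other neighbouring pair was separated in all 3 wildtype libraries.

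Part of this order rests on the choice of length. With the longest transcript in place of the union of exons, Klf13 (59.4) stood above Klf16 (55.4), Klf12 (10.9) above Klf2 (10.5) and Klf3 (8.57) above Klf4 (5.25 ppm). Klf3 shifted most, as its exons add up to 11243 bases over 9 annotated transcripts and its longest transcript has 5221. Klf6 was the highest under both lengths.

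**Figure D1:**
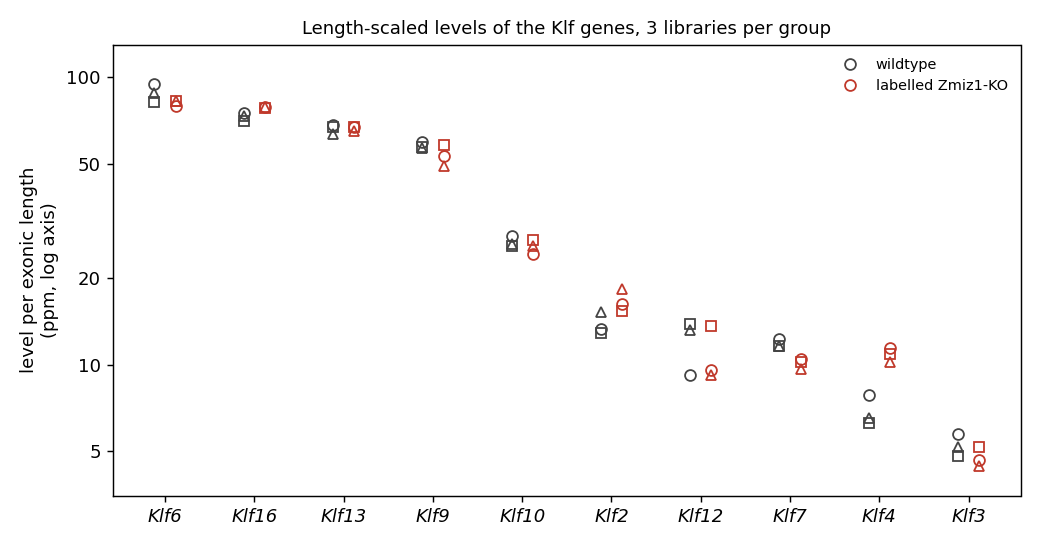
Length-scaled levels of the 10 Klf genes in ppm on a log axis, in order of the wildtype mean; each symbol is 1 library (circle, square and triangle for replicates 1, 2 and 3). Klf6 lies between 79.4 and 95.2 in all 6 libraries and Klf3 between 4.44 and 5.74, and Klf4 lies between 6.26 and 7.82 in wildtype and between 10.2 and 11.4 in the Zmiz1-KO-labelled libraries.

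All 10 genes passed the filter on low values, which asked for 10 normalized counts or more in no fewer than 3 libraries, and the lowest value of any of them in any library was 148. The 2 groups did not overlap for 4 of the 10 genes, against 2570 of 15800 tested genes (16.3%). Nothing is read from this count, because the choice of the genes drew on the same values. Against wildtype, 4 of the 10 had higher and 6 had lower means, with a median log2 change of -0.07 (-0.09 to -0.02 with 1 library left out, nearest to 0 without wildtype replicate 1) against 0.00 over all tested genes.

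Klf4, a factor of quiescence and pluripotency that restrains axon growth in neurons and is also expressed in endothelium and fibroblasts, was at 188, 148 and 156 normalized counts in wildtype and at 276, 259 and 246 in the Zmiz1-KO-labelled libraries. Even the lowest Zmiz1-KO-labelled library exceeded the highest wildtype library. The group means were 164 ± 21.5 and 260.3 ± 14.7 (SD, n = 3 per group), a log2 change of 0.67 (SE 0.13, 95% interval 0.40 to 0.95), or 1.59-fold.

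With 1 library left out at a time, the log2 change of Klf4 lay between 0.60, without wildtype replicate 2, and 0.77, without wildtype replicate 1. In length-scaled terms Klf4 lay below Klf7 in all 3 wildtype libraries and overlapped Klf7 and Klf12 in the Zmiz1-KO-labelled libraries, at 10.8 ± 0.629 ppm against 10.1 ± 0.412 for Klf7 and 10.8 ± 2.41 ppm for Klf12.

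Klf2, the closest counterpart of Klf4 in endothelium, where it is induced by laminar flow, was at 193, 184 and 221 normalized counts in wildtype and at 237, 222 and 269 in the Zmiz1-KO-labelled libraries. The groups were separate, but wildtype replicate 3 lay within about 1 normalized count of Zmiz1-KO replicate 2. The means were 199.5 ± 18.9 and 243 ± 24.1 (SD, n = 3 per group), with a log2 change of 0.28 (SE 0.13, 95% interval 0.01 to 0.55).

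**Figure D2:**
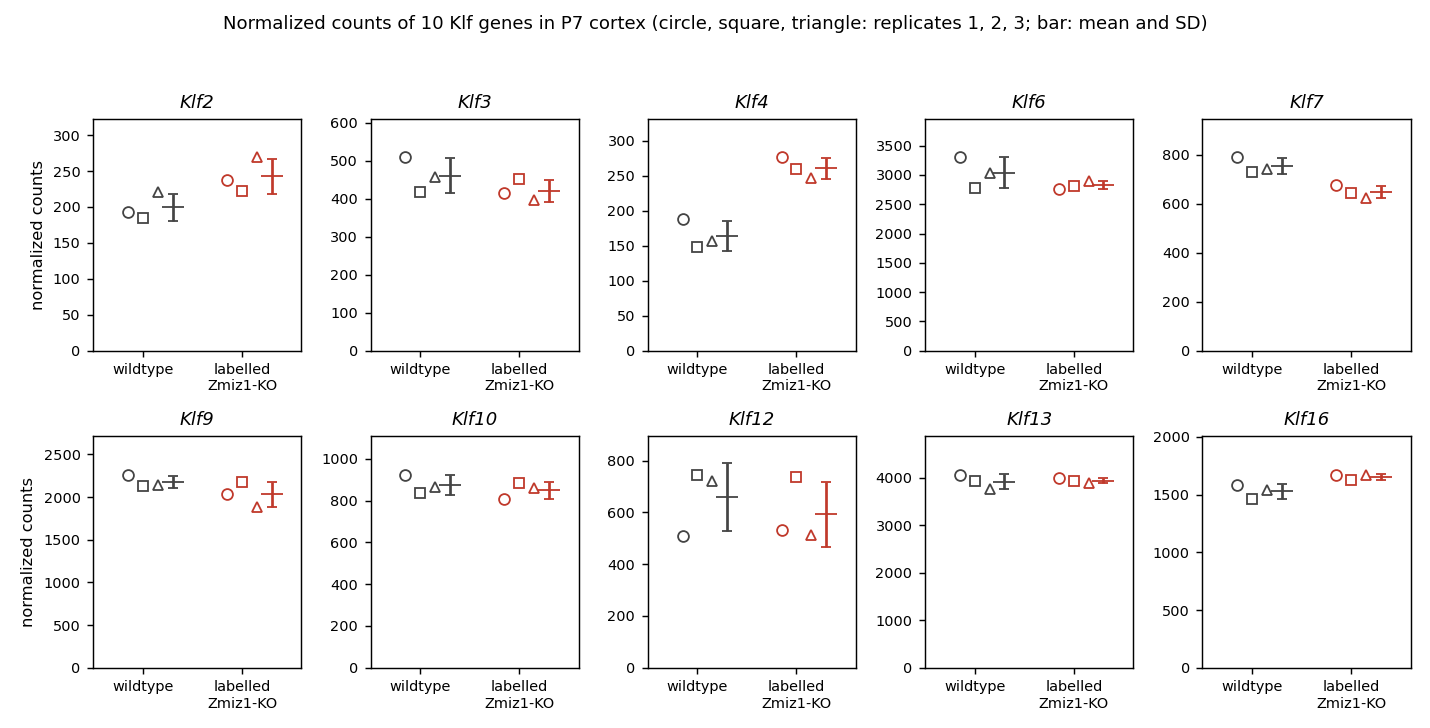
Normalized counts of each of the 10 Klf genes by group; symbols are single libraries (circle, square and triangle for replicates 1, 2 and 3) and bars are mean and SD of 3 libraries, with every axis starting at 0. Klf2, Klf4 and Klf16 have all 3 Zmiz1-KO-labelled libraries above all wildtype libraries, Klf7 has them below, and Klf12 splits within both groups.

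Among the genes tied to axon growth, Klf7, which promotes outgrowth and neuronal differentiation, was at 789, 729.5 and 739.9 normalized counts in wildtype and at 675, 643 and 624 in the Zmiz1-KO-labelled libraries. Each Zmiz1-KO-labelled library lay below each wildtype library. The means were 753 ± 31.7 and 647 ± 25.7 (SD, n = 3 per group), with a log2 change of -0.22 (SE 0.072, 95% interval -0.37 to -0.07). The antisense gene Gm26649 covers 39.3% of the exonic bases of Klf7, and the library kit does not mark the strand, so reads of the 2 genes cannot be told apart. Gm26649 had no row, so no value of it is given.

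Klf6, the other growth-promoting member, ranged from 2781 to 3301 normalized counts in wildtype and from 2760.1 to 2894 in the Zmiz1-KO-labelled libraries. The groups overlapped, and wildtype varied more, with an SD of 260.0 against 67.2. Its log2 change was -0.10 (SE 0.056, 95% interval -0.22 to 0.01).

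Klf9, induced by glucocorticoid and thyroid hormone and rising during neuronal maturation, was at 2263, 2125 and 2143 normalized counts in wildtype and at 2037, 2177 and 1881 in the Zmiz1-KO-labelled libraries. Zmiz1-KO replicate 2 fell among the wildtype libraries, so the groups overlapped. Its log2 change was -0.10 (SE 0.056, 95% interval -0.22 to 0.02).

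Klf13, the paralog of Klf9, varied least among the 10 genes and between the groups. It ranged from 3764 to 4064 normalized counts in wildtype and from 3892 to 3994 in the Zmiz1-KO-labelled libraries, with a log2 change of 0.01 (SE 0.043, 95% interval -0.08 to 0.10). This was the narrowest interval of the 10.

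Klf16, which recruits the Sin3 corepressor, was at 1582, 1461 and 1537 normalized counts in wildtype and at 1666, 1625 and 1673 in the Zmiz1-KO-labelled libraries. The groups did not overlap, though the difference was small. The means were 1527 ± 60.8 and 1654 ± 25.7 (SD, n = 3 per group), with a log2 change of 0.12 (SE 0.053, 95% interval 0.01 to 0.23).

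Klf10, which also acts through Sin3, ranged from 834 to 924 normalized counts in wildtype and from 805 to 884 in the Zmiz1-KO-labelled libraries. The groups overlapped, with a log2 change of -0.04 (SE 0.069, 95% interval -0.19 to 0.10).

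Klf3 and Klf12 repress through the corepressor CtBP. Klf3 was between 417 and 509 normalized counts in wildtype and between 396 and 451 in the Zmiz1-KO-labelled libraries, with overlapping groups and a log2 change of -0.13 (SE 0.096, 95% interval -0.33 to 0.07). An antisense gene, Gm20033, which had no row, covers 3.59% of the exonic bases of Klf3.

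Klf12 was the most variable of the 10 genes, at 508, 746 and 723 normalized counts in wildtype and at 530.2, 736 and 511 in the Zmiz1-KO-labelled libraries. Wildtype replicate 1 and Zmiz1-KO replicates 1 and 3 were low, and the other 3 libraries were high, so the split crossed the groups. The SD within groups was 0.30 on the log2 scale for Klf12, against a median of 0.094 over all tested genes, and the 95% interval of its log2 change of -0.15 ran from -0.70 to 0.39. Most of the 10 genes were far steadier than Klf12, with an SD within groups of 0.041 for Klf13, 0.044 for Klf16 and 0.058 for Klf7. Klf2 and Klf4, both at 0.14, and Klf3, at 0.12, still lay above the median of all tested genes.

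Klf4 and Klf12 were picked for a look at similar genes after their values were seen. Over the 6 libraries, the tested genes whose log2 values followed those of Klf4 most closely were Ptpru, a receptor tyrosine phosphatase (Pearson r = 0.992), Diras1, a Ras-related GTPase (0.992), and 1110065P20Rik (0.989). Their log2 changes were 0.14, 0.08 and 0.10, much smaller than that of Klf4. For Klf12 the closest were Tmem178b (0.996), Itsn1 (0.990) and Nsd1 (0.989), which also split the libraries across the groups. With 6 libraries and 15799 other genes, the closest gene to each of the 10 had an r of 0.988 to 0.997, so these values are a description. Within the 10, the highest correlation was that of Klf4 with Klf16 (0.934) and the lowest that of Klf2 with Klf9 (-0.817).

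The rest of the family was taken from lists of the other 8 Klf genes and the 9 Sp genes, the related factors that bind the same GC-rich motif. Of the other Klf genes, 7 were in the table and 5 passed the filter on low values, and limma called 0 of the 5 (0.411% of all tested genes), with 0 at an unadjusted p under 0.05 (11.0%). Klf8 differed most, at 1415 ± 72.9 and 1312 ± 33.1 normalized counts (SD, n = 3 per group; log2 change -0.11), and its groups were separate by less than 1 normalized count. Klf5 (-0.10), Klf11 (-0.02), Klf14 (-0.06) and Klf15 (0.03), a glucocorticoid-induced factor, had overlapping groups. Groups were thus separate for 1 of the 5, against 16.3% of all tested genes.

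Klf1, the erythroid founding member of the family, stayed between 2.06 and 8.02 normalized counts, and Klf17, a germ cell and early embryo factor, between 0 and 2.06, which is about 1 read. Neither was tested. Klf17 was listed at 0 in wildtype replicate 2 and Zmiz1-KO replicate 3. Klf18 had no row and was not analysed here.

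Of the 9 Sp genes, limma called 0 (0.411% of all tested genes), with 2 at an unadjusted p under 0.05 (11.0%), and their median log2 change was 0.03. Sp6, an epithelial and tooth factor, had the largest, 0.89 (SE 0.30, limma adjusted p = 0.264), at 27.1 ± 7.18 and 51.1 ± 14.6 normalized counts (SD, n = 3 per group). It cannot be told apart from its antisense neighbour Gm11532, which covers 86.7% of its exonic bases and had a log2 change of 0.90. Sp5 (0.51), Sp9 (0.20), Sp7 (0.15), Sp2 (0.03), Sp3 (0.01), Sp8 (0.01), Sp1 (-0.10) and Sp4 (-0.14) had overlapping groups. Groups were thus separate for 1 of the 9 Sp genes, against 16.3% of all tested genes.

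**Figure D3:**
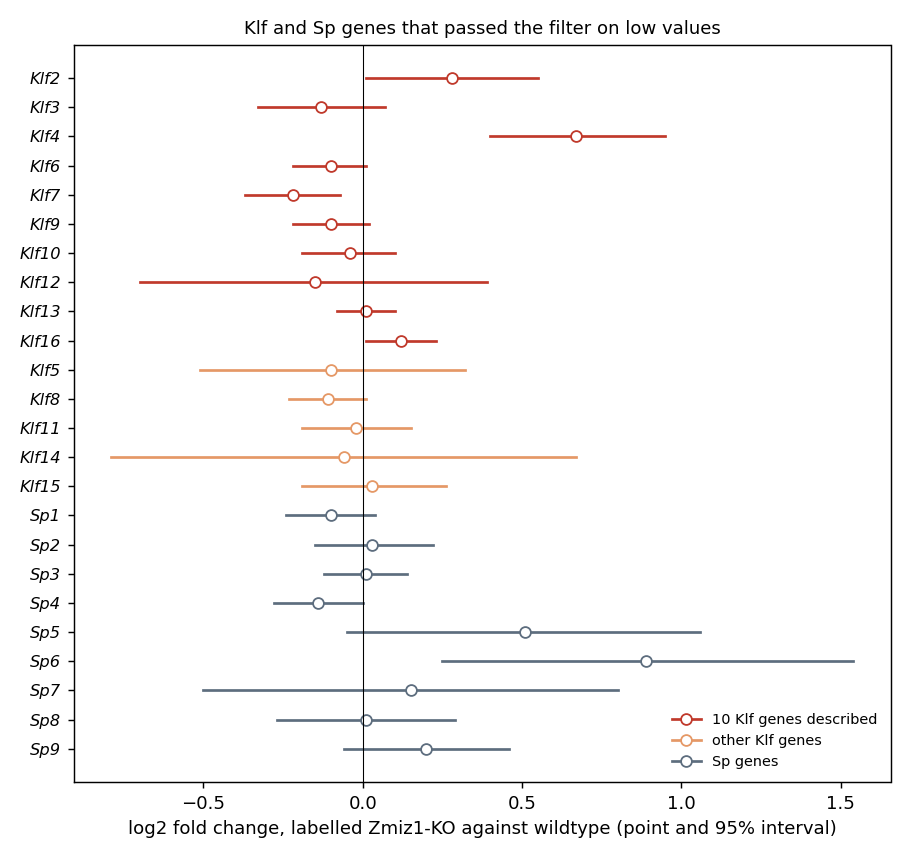
Log2 change of each tested Klf and Sp gene in the Zmiz1-KO-labelled libraries against wildtype, with points for the estimate and lines for the 95% interval from limma on 3 libraries per group. The intervals are not adjusted for the number of genes tested or for the choice of genes. The 10 Klf genes, drawn as a description, run from -0.22 for Klf7 to 0.67 for Klf4, and Sp6 lies farthest from 0, at 0.89.

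Genes that act on or with the Klf genes and proteins gave no call in the fit of all 6 libraries without a replicate block. Over all tested genes, limma called 0.411%, and 11.0% had an unadjusted p under 0.05. Of 13 coregulators, among them the CtBP, Sin3, histone deacetylase and acetyltransferase genes, limma called 0, with 2 at an unadjusted p under 0.05 and a median log2 change of 0.00; the most abundant, Ctbp1, was at 6925 ± 58.9 and 6965 ± 146 normalized counts (SD, n = 3 per group). Of 19 kinases, receptors and transcription factors that induce Klf genes, limma called 0, with 3 at an unadjusted p under 0.05 and a median of 0.00; the most abundant, the thyroid hormone receptor Thra, was at 45663 ± 588 and 45963 ± 1076. Without wildtype replicate 2, 1 of the 19 passed, the neuronal transcription factor Mef2c (log2 change -0.32, limma adjusted p = 0.0435, and 0.466 with all libraries). With all libraries and the replicate number as a block, Mef2c was called too (log2 change -0.23, limma adjusted p = 0.00848). Of all tested genes, 85 were called without wildtype replicate 2 and 168 with the block, against 65 in the main fit. The replicate numbers did not pair the libraries. Of 6 ubiquitin ligases that act on Klf proteins, limma called 0, with 1 at an unadjusted p under 0.05 and a median of -0.01, and the most abundant was Fbxw7.

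Lists of genes downstream of the family or induced alongside it gave few calls, apart from the immediate early genes, read against 0.411% of all tested genes called and 11.0% with an unadjusted p under 0.05. Of 11 genes induced by glucocorticoid in brain, limma called 0 and had 0 at an unadjusted p under 0.05, with a median log2 change of 0.02 and Per1 the most abundant. Of 7 genes linked to Klf factors in neurons, limma called 0, with 1 at an unadjusted p under 0.05 and a median of -0.02; the most abundant was Gap43, a growth cone protein.

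Of 8 flow-responsive endothelial targets of Klf2 and Klf4, 7 were tested and 1 was called (0.411% of all tested genes), with 3 at an unadjusted p under 0.05 (11.0%), a median log2 change of -0.02 and Vcam1 the most abundant. Thbd, which encodes thrombomodulin, was at 792, 821 and 816 normalized counts in wildtype and at 968, 1189 and 995 in the Zmiz1-KO-labelled libraries, with a log2 change of 0.37 (SE 0.076, limma adjusted p = 0.0444). All 3 Zmiz1-KO-labelled libraries were higher, but Thbd did not pass the threshold when any 1 of the 6 libraries was left out, with adjusted p from 0.0648 to 0.161. Edn1 and Nos3, singled out after their values were seen because their groups also did not overlap, had log2 changes of opposite sign, 0.67 and -0.23, and no call. Groups were separate for 3 of the 7 tested genes of this list, against 16.3% of all tested genes.

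Among 12 immediate early genes, which neuronal activity and serum induce as they do Klf2, Klf4 and Klf10, 4 were called higher and 0 lower, against 0.411% of all tested genes called in either direction, and 9 had an unadjusted p under 0.05, against 11.0%. Their median log2 change was 0.30, against 0.00 over all tested genes, and the groups did not overlap for 9 of the 12, against 16.3%. As this list was chosen with earlier results of these data known, no conclusion is drawn from these counts. Fos had a log2 change of 0.95, Fosb of 1.01, Egr1, the most abundant, of 0.53 and Arc of 0.40. Fos and Egr1 passed in all 6 fits that left out 1 library. Fosb passed in 2 of them, those without wildtype replicate 2 or Zmiz1-KO replicate 2, and Arc in 0, with adjusted p of up to 0.342 and 0.212. The summed level of the 12 genes was 5187, 5574 and 5311 normalized counts in wildtype and 7033, 7145 and 6967 in the Zmiz1-KO-labelled libraries. Klf2 and Klf4 had the same separation of libraries, whereas Klf10 had overlapping groups and a log2 change of -0.04. The part of the early genes in the differences in Klf2 and Klf4 was not tested.

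Since Klf2 and Klf4 are also expressed in vessels, meninges and immune cells, markers of those cells were measured beside them; in bulk tissue, a different number of cells of a type and a different amount of RNA per cell cannot be told apart. The 13 endothelial markers summed to 9807, 9815 and 9614 normalized counts in wildtype and to 9614, 10237 and 9566 in the Zmiz1-KO-labelled libraries, with Cldn5 the most abundant, a median log2 change of -0.04 (-0.10 without Zmiz1-KO replicate 2 and 0.00 without Zmiz1-KO replicate 3) and 0 calls by limma (0.411% of all tested genes), 1 at an unadjusted p under 0.05 (11.0%). The groups overlapped in this sum. Cldn5 itself was at 2197, 2298 and 2237 normalized counts in wildtype and at 2380, 2391 and 2500.4 in the Zmiz1-KO-labelled libraries, so its groups were separate in the same direction as those of Klf2 and Klf4, with a log2 change of 0.11 and no call. Flt1 (-0.09) and Sox17 (-0.28), named after their values were seen, had separate groups in the opposite direction without a call. The other 10 markers had overlapping groups, so groups were separate for 3 of the 13, against 16.3% of all tested genes. The part of these markers in the differences in Klf2 and Klf4 was not tested. The 9 mural cell markers, led by Rgs5, had a median of -0.07 (-0.10 to -0.03 with 1 library left out), with 0 calls and 1 at an unadjusted p under 0.05 (11.0%). The 10 microglia markers, led by Csf1r, had a median of -0.04 (-0.08 to -0.00 with 1 library left out), with 0 calls and 2 at an unadjusted p under 0.05 (11.0%). No marker in these lists was listed at 0 in every library.

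The 8 meningeal and choroid plexus markers had a median log2 change of 0.14. With 1 library left out, this median ran from 0.10, without wildtype replicate 1, to 0.26, without wildtype replicate 2. Of the 8 markers, 4 had an unadjusted p under 0.05 (11.0% of all tested genes), and 1 was called (0.411%). Col1a2, a fibroblast collagen, had means of 4066 ± 244 and 5058 ± 132 normalized counts with n = 3 per group, a log2 change of 0.32 (limma adjusted p = 0.00464, and 0.0683 without Zmiz1-KO replicate 3). Igf2, the most abundant, was at 7139.9, 8829 and 9054 normalized counts in wildtype and at 9980, 11091 and 9624 in the Zmiz1-KO-labelled libraries, so its groups were separate in the same direction as those of Klf4. The whole list summed to 14709, 24736 and 23699 in wildtype and to 22613, 21415 and 23857 in the Zmiz1-KO-labelled libraries. Looked up after their values were seen, the fibroblast genes Col1a1 (log2 change 0.34) and Dcn (0.22) also had separate groups in that direction without a call, and Lum (0.06) had overlapping groups. Over the whole list, groups were separate for 4 of the 8 markers, against 16.3% of all tested genes. The choroid plexus genes Ttr (-0.65), Folr1 (-0.82) and Kl (-0.40), looked up in the same way, had overlapping groups, and Ttr was at 98.8 in wildtype replicate 1, 89.8 in Zmiz1-KO replicate 2 and 2874 to 7728 in the other 4 libraries. Their part in the differences in Klf2 and Klf4 was not tested. Of 8 astrocyte markers, led by Slc1a2, the water channel Aqp4 was called lower (log2 change -0.29, limma adjusted p = 0.00499, and up to 0.0815 without Zmiz1-KO replicate 1 or 3). In this list, 3 had an unadjusted p under 0.05 (11.0% of all tested genes). Groups were separate for 4 of the 8, against 16.3%. Beside Aqp4 these were Slc1a3 (-0.10), S100b (-0.27) and Gfap (0.05), named after their values were seen. The median log2 change was -0.07 (-0.10 to -0.03 with 1 library left out).

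The genes lie on 10 different chromosomes of GRCm38. Klf2 lies at chr8:72319033-72321656 on the plus strand, Klf4 at chr4:55527143-55532466 on the minus strand, Klf7 at chr1:64029447-64122282 on the minus strand and Klf16 at chr10:80567124-80577321 on the minus strand. Klf12 is the longest gene, at chr14:99870632-100284679 on the minus strand.

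Upstream sequence from RefSeq (GRCm38.p6) was held for 8 of the 10 genes; Klf10 and Klf16 had no entry. The RefSeq starts are not always the outermost start of the gene in GENCODE: the windows of Klf12 and Klf7 lie wholly inside the annotated gene, with a start 134883 and 893 bases downstream of its 5′ end, and those of Klf3, Klf2 and Klf6 reach 133, 29 and 7 bases into it. In the 250 bases before each start, both strands were searched for the GC box GGGCGG, the CACCC box CACCC, the cAMP response core TGACG, the CCAAT box CCAAT, the TATA box TATAAA, the CArG box and the MEF2 site. The GC box, to which Klf and Sp proteins themselves bind, was in 6 of the 8 windows and in 32.7% of 32851 windows of all genes. The CACCC box was in 6 of 8 and 52.0%, TGACG in 5 of 8 and 17.8%, CCAAT in 3 of 8 and 33.8% and TATAAA in 1 of 8, the window inside Klf12, and 12.4%. The CArG box, the site of serum response factor, was in 0 of 8, against 1.47%, which says only that these letters are not in the windows. The windows of the 8 genes were mostly GC-rich, from 48.0% for Klf12 to 78.4% for Klf3, against a median of 52.4% over all windows, which bears on any motif made of G and C.

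The windows of Klf2 and Klf4 are shown because both genes had higher values in all Zmiz1-KO-labelled libraries and both are known targets of serum and activity signals. That of Klf4 (chr4:55532476-55532725, minus strand) holds 4 GC boxes, the first 2 of which share 1 base, and 1 TGACG. That of Klf2 (chr8:72318812-72319032, plus strand) is given up to the first exonic base in GENCODE, which leaves out 29 bases next to the RefSeq start. It holds 2 GC boxes, 1 TGACG and, alone among the 8, a MEF2 site, found in 1.69% of all windows. Capitals mark the GC box, TGACG and the MEF2 site on either strand, and each match is a description of these letters, not evidence of binding.
Klf2: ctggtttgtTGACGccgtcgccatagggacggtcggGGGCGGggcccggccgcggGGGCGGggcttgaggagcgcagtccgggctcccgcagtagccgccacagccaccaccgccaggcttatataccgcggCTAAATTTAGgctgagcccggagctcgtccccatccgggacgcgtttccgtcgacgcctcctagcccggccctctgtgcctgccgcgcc
Klf4: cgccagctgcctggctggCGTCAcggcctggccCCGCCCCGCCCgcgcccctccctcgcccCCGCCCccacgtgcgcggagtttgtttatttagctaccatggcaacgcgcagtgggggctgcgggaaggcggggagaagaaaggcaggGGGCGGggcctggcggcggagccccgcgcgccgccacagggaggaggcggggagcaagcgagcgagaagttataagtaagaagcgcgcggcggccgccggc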

How the data were processed

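RNA from P7 mouse cortex was sequenced as 3 wildtype and 3 Zmiz1-KO libraries made with a TruSeq RNA v2 kit, which does not mark the strand. Per the study's methods, the authors aligned the reads with STAR and compared the groups with the DESeq2 tool in BaseSpace; the submitters' processing notes name mm10. The values the authors deposited are a signal on a linear scale. They are taken as normalized counts of that tool from the naming of the table and because median-ratio factors recomputed on them were 1.002 in every library; the sources used here do not describe the step. Values up to 20 lay near multiples of a step in 88.0% to 91.8% of cases (within 0.1 of a step) and values over 100 in 19.5% to 22.0%, so whole reads could not be recovered and no count test was run.

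Genes that reached 10 normalized counts in 3 or more libraries were tested with limma 3.58.1 in R 4.3.3 (trend and robust prior, two-sided) on log2(value + 1), with Benjamini-Hochberg adjustment over all 15800 tested genes and a threshold of 0.05. Fold changes are on that scale, which understates changes of low genes. An exact permutation test of 3 against 3 libraries cannot go below 0.1 and was not used. The fit was tested on simulated data. Exonic lengths and overlaps came from GENCODE (GRCm38), with lengths for 98.1% of genes. Figures were drawn with matplotlib 3.10.9.

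Named were the 10 genes, every other Klf and Sp gene and Zmiz1. In each other list, the genes past the threshold and the most abundant gene were named. Antisense genes were named where they overlap Klf3, Klf7 or Sp6. Those that overlap Zmiz1, Sp2, Sp3 and Sp9, by at most 5.35% of exonic bases, were not named. Other genes, among them the 3 most correlated with Klf4 and with Klf12, were chosen after their values were seen and are marked so. The 10 genes and the lists were chosen with earlier results of these data known, and no call is given for the 10. Alternatives were other pseudocounts, filters and scalings, a prior without robustness, a replicate block, Xist as a covariate, each library left out, a threshold of 0.1 and another gene length.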

Additional observations from a re-analysis of the deposited data

How the results depend on the processing

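Pseudocounts of 0.1 and 10, both other filters, both other scalings and Xist as a covariate left the counts of called genes within 1.5 times for all tested genes and each list of the rest of the family and its pathways. The scalings moved the median log2 fold change of all genes by at most 0.006. With the prior without robustness, 17 genes were called in place of 65, with 0 in place of 1 among the endothelial targets and 2 in place of 4 among the immediate early genes; Emx1 did not pass either (limma adjusted p = 0.0755). Fosb also missed the threshold without a filter on low values (limma adjusted p = 0.0508) and with Xist as a covariate (0.0555). At an adjusted p of 0.1, 106 genes were called.

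The replicate numbers did not pair the libraries: the correlations of same-numbered deviations were -0.00509, -0.113 and -0.00627. With the number as a replicate block, 168 genes were called, and the inducers of Klf genes had 1 call in place of 0, Mef2c (log2 fold change -0.23, limma adjusted p = 0.00848). Without the block, its adjusted p was 0.466 with all libraries, 0.0435 without wildtype replicate 2 and 0.422 to 0.741 without each other library. The block ended none of the calls given for Zmiz1, Emx1, Thbd, Fos, Fosb, Egr1, Arc, Col1a2 and Aqp4.

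Leaving out 1 library at a time gave 12 to 151 called genes: 30 without wildtype replicate 1, 17 without Zmiz1-KO replicate 1, 151 without Zmiz1-KO replicate 2 and 12 without Zmiz1-KO replicate 3. The inducers of Klf genes had 0 to 1 calls, the endothelial targets 0 to 0 and the immediate early genes 2 to 4. The median log2 fold changes of the Sp genes, coregulators, inducers, ligases, glucocorticoid-induced genes and neuronal and endothelial targets lay between -0.04 and 0.06. Such fits have fewer libraries, and the cause of each shift was not tested.

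Klf4 had a log2 fold change of 0.60 to 0.77 over the 16 fits. Of the 10 genes, Klf13 alone changed sign, to -0.02 without wildtype replicate 3 and to -0.00 without Zmiz1-KO replicate 1, with 0.03 the highest, without wildtype replicate 1. The others kept their direction in all 16 fits, with log2 fold changes of 0.20 to 0.36 for Klf2, -0.25 to -0.18 for Klf7, 0.09 to 0.14 for Klf16, -0.33 to -0.05 for Klf12, -0.20 to -0.06 for Klf3, -0.17 to -0.04 for Klf6, -0.15 to -0.05 for Klf9 and -0.08 to -0.00 for Klf10, which was nearest to 0 without wildtype replicate 1 or Zmiz1-KO replicate 1. The deposited values do not separate exons, strands or cell types, and 3 libraries per group limit what can be called.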
